A study of Mus musculus with 4 samples.

Results

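The cystine transporter gene Slc7a11 and 9 other genes of the amino acid stress response were followed in mouse testis of genotype CTRL and Znhit1_KO, 10 genes of 55335 gene rows in the deposited table and of 24116 with enough counts to be tested. They were Slc7a11, Slc3a2, Atf4, Asns, Chac1, Trib3, Ddit3, Sesn2, Gclm and Hmox1, found by their symbols in the table, which held 11 rows for them because Ddit3 has a second gene model that was at 0 in every library. The genes had been selected on measured values, namely the Znhit1_KO and CTRL levels of these same libraries. Their levels are therefore given as a description, without a test. All 10 passed the filter on low counts.

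RNA came from testes at postnatal day 14, in 2 libraries of genotype Znhit1_KO and 2 of genotype CTRL, and poly(A) RNA was sequenced. The labels call the replicates biological and independent. They name the source as testis and the cells as testis cells, while the design text names germ cells. The sources used here do not give the allele, a Cre line, the strain or the alleles of the CTRL animals. Values of a group are printed in the order replicate 1, replicate 2. ZNHIT1 belongs to the SRCAP complex, which exchanges histone H2A for H2A.Z. In bulk tissue, fewer cells of a type and less RNA per cell cannot be told apart.

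Slc7a11 is the light chain of system xc-, the exchanger that brings cystine into the cell and releases glutamate, and Slc3a2 (CD98) is the heavy chain that carries it to the membrane. Cystine is reduced to cysteine and used for glutathione, the main thiol antioxidant. When amino acids run short or the endoplasmic reticulum is stressed, kinases phosphorylate eIF2, general translation falls, and the mRNA of the transcription factor ATF4 is translated more. ATF4 then induces genes for amino acid import and synthesis, among them Slc7a11 and Asns, and feedback regulators such as Trib3, Ddit3, Sesn2 and Chac1. A second factor, NRF2, responds to oxidants and electrophiles and induces Slc7a11, Gclm and Hmox1. In the testis, Sertoli cells supply developing germ cells with nutrients and precursors across the blood-testis barrier.

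ATF4 binds C/EBP-ATF response elements and NRF2 binds antioxidant response elements, so the promoters of the genes are shown first. RefSeq promoters (GRCm38.p6, the assembly of mm10), each running from 250 bases before to 50 after the transcription start, matched 9 of the 10 genes by symbol; Hmox1 was the other. On both strands they were searched for the C/EBP-ATF element as TGATGNAAN, for its single spelling TGATGCAAT, for the antioxidant element core as TGACNNNGC and for the cyclic AMP element TGACGTCA. The second of these spellings is contained in the first. TGATGNAAN was present in 4 of the 9 promoters, those of Slc7a11, Asns, Chac1 and Trib3, against 3.95% of 32851 promoters of the same length. The Slc7a11 promoter held it on both strands, and 0.0700% of all promoters held it at 2 or more places. TGACNNNGC was present in 3 of the 9 (Asns, Sesn2 and Gclm), against 12.4% of all. TGATGCAAT and TGACGTCA were in none of the 9, against 0.192% and 1.79% of all. In the 150 bases before the start alone, TGATGNAAN was in 2 of the 9 promoters (Slc7a11 and Asns), against 2.22% of all. The genes are known members of the response, so these shares describe how they were picked as much as the data.

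The 150 bases before the Slc7a11 start (chr3:50443614-50443763, minus strand) are printed because Slc7a11 is the gene with the largest difference, and capitals mark its 2 C/EBP-ATF elements, the first on the gene's strand and the second on the opposite strand.
Slc7a11: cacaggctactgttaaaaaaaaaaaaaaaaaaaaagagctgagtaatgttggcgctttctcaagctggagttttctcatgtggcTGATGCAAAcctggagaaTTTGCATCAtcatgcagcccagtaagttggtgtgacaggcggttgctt
They begin 66 and 48 bases before the start, and their spelling, read on the strand of the match, was TGATGCAAA in both.

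The other matches are shown for comparison with 10 bases on each side, in the direction of the gene, with the motif in capitals. The first 3 are C/EBP-ATF elements, of Asns (chr6:7693214-7693242, minus strand), Chac1 (chr2:119351038-119351066, plus strand) and Trib3 (chr2:152344029-152344057, minus strand).
Asns: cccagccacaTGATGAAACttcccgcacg
Chac1: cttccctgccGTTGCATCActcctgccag
Trib3: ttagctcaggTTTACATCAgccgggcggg
The Asns element began 23 and that of Chac1 194 bases before the start, and that of Trib3 lay 13 bases after it. The next 3 are antioxidant elements, of Gclm (chr3:122245413-122245441, plus strand), Sesn2 (chr4:132510474-132510502, minus strand) and Asns (chr6:7693363-7693391, minus strand).
Gclm: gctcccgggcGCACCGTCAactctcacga
Sesn2: cgcagcgggcTGACAGAGCcgggcgagcg
Asns: tatcctgcctGCAGTGTCAcagcacctta
A match is a run of letters, and binding was not measured.

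**Figure D1:**
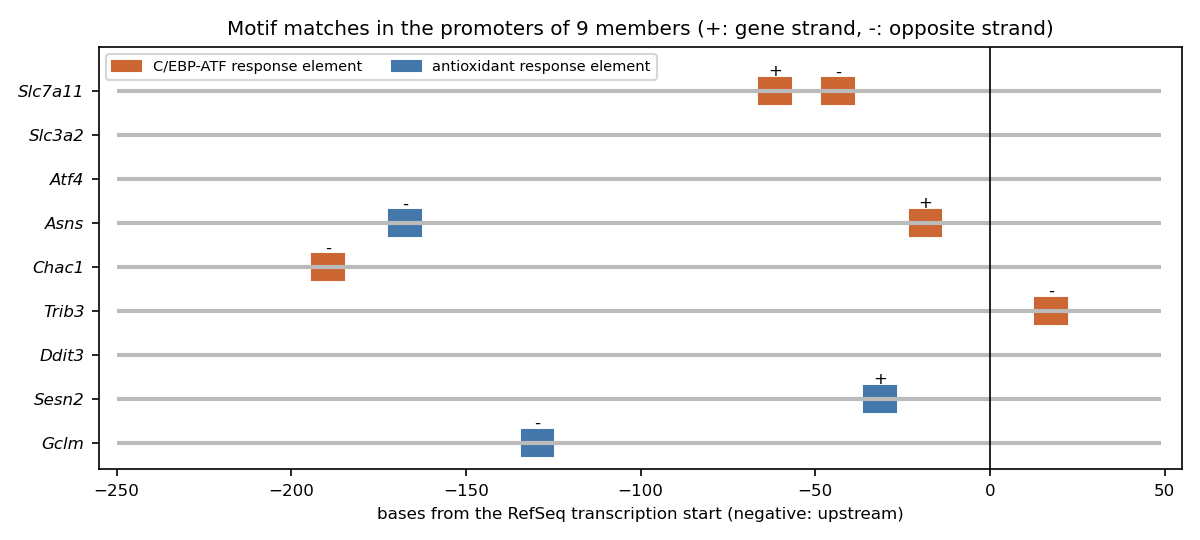
Positions of C/EBP-ATF (orange) and antioxidant (blue) element matches in the promoters of 9 genes, in bases from the RefSeq transcription start. The 2 matches of Slc7a11 lie close together, 66 and 48 bases before the start, and Slc3a2, Atf4 and Ddit3 have none.

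The targeted gene was checked first. In CPM (counts scaled to library size with TMM), Znhit1 stood at 17.3 and 31.9 in CTRL, against 3.15 and 2.14 in Znhit1_KO, a log2 change of -3.22 (SE 0.403). Estimated counts summed to between 129531714 and 157790457 per library. The edgeR quasi-likelihood test, adjusted over all genes, called 0 of 24116 genes (0%) at 0.05, and limma-voom also called 0 (0%). At an unadjusted edgeR p under 0.05, 2.99% of genes were higher and 7.75% lower in Znhit1_KO. DESeq2 called 0.46% higher and 3.86% lower, and the authors' deposited table marks 0.277% of its 25236 genes as higher and 3.22% as lower. Both Znhit1_KO libraries were above both CTRL libraries for 21.8% of genes and below both for 21.3%.

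Slc7a11 stood apart from the other 9 genes. Estimated counts for it numbered 51 and 53 in CTRL, against 666 and 424 in Znhit1_KO. The CTRL libraries had 0.378 and 0.413 CPM (mean 0.395 ± 0.0248, SD, n = 2) and the Znhit1_KO libraries 4.22 and 3.05 CPM (3.63 ± 0.822, SD, n = 2). Both Znhit1_KO libraries were far above both CTRL libraries, and the gap was wider than the spread within either group. The ratio of the means was 9.20, and the log2 change was 3.20 (SE 0.369). With any 1 library left out the log2 change lay between 2.92 and 3.38. In the authors' deposited table its log2 change is 3.20 with a standard error of 0.414. It is the 1 gene of the 10 marked higher there (0.277% of all genes are) and the 1 that DESeq2 called higher (0.46% of all genes were), while edgeR and limma-voom called 0 of the 10. These calls rest on the values that chose the genes and are no separate evidence.

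The Slc7a11 transcript was scarce in every library. Per length, the authors' TPM were 0.106 and 0.103 in CTRL and 1.16 and 0.834 in Znhit1_KO. The gene model (ENSMUSG00000027737.10, protein-coding, minus strand of chromosome 3, 49892526 to 50443614, mm10) spans 5 smaller annotated genes. Of these, Gm37826 had 3 estimated counts in Znhit1_KO replicate 2, and the other 4 had 0 throughout. The nearest tested protein-coding genes on either side had much smaller differences. Pcdh18, a protocadherin gene 135201 bases away, had a log2 change of 0.38 (SE 0.376) and an edgeR adjusted p of 0.761. Noct, a circadian phosphatase gene 780833 bases away on the other side, had 0.14 (SE 0.152) and an edgeR adjusted p of 0.776.

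**Figure D2:**
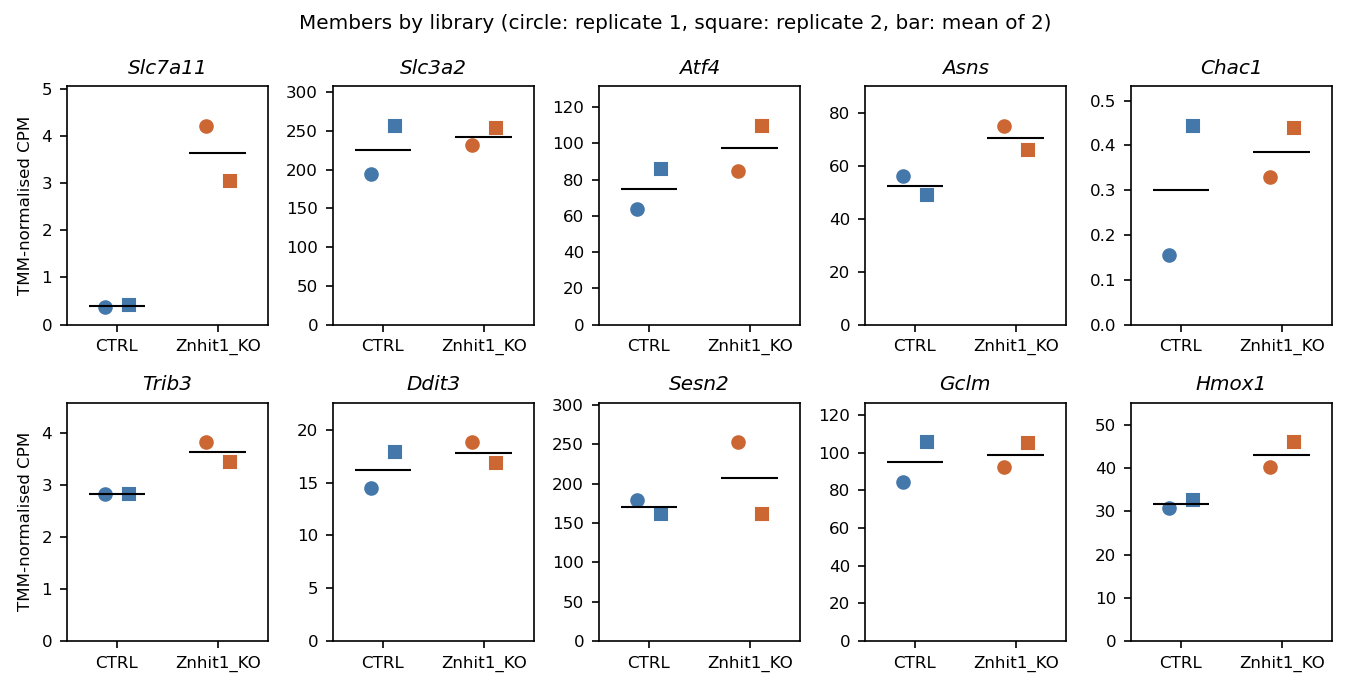
TMM-normalised CPM (vertical axes from 0, a different scale for each gene) of the 10 genes in each library, with circles for replicate 1, squares for replicate 2 and a bar at the mean of 2. Slc7a11 is at 0.378 and 0.413 in CTRL and at 4.22 and 3.05 in Znhit1_KO; for 6 of the 10 genes the groups overlap.

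Slc3a2, the heavy chain that SLC7A11 needs to reach the membrane, had no such gap between groups. It stood at 195 and 257 CPM in CTRL and at 232 and 253 CPM in Znhit1_KO, so that both Znhit1_KO values lay between the CTRL values. Its log2 change was 0.10 (SE 0.185), from -0.085 without CTRL replicate 1 to 0.32 without CTRL replicate 2, and it was -0.23 when libraries were scaled to the 20 Sertoli markers. By TPM, Slc3a2 was the most abundant of the 10, at 237 and 266 in CTRL and 280 and 304 in Znhit1_KO. On that scale its groups did not overlap. Slc3a2 exceeded Slc7a11 in TPM by ratios of 2231 and 2597 in CTRL, against 241 and 365 in Znhit1_KO. Heavy chain mRNA thus exceeded that of this light chain by over 2 orders of magnitude in each library.

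Slc3a2 also pairs with other SLC7 light chains. Slc7a5, the large neutral amino acid transporter LAT1, was the most abundant member of the family, at 479 and 543 TPM in CTRL and 592 and 611 TPM in Znhit1_KO. The TPM ratio of Slc3a2 to Slc7a5 was between 0.473 and 0.498 in the 4 libraries. Slc7a11 was the lowest of the 13 tested family members in CTRL; in Znhit1_KO its mean of 0.998 TPM was close to those of Slc7a3 (0.989) and Slc3a1 (0.944). Slc7a3, a cationic amino acid carrier, varied between the CTRL libraries (0.856 and 0.105 TPM), against 1.15 and 0.834 in Znhit1_KO. Of the 11 other SLC7 and SLC3 genes tested edgeR called 0 over all genes. In both Znhit1_KO libraries 3 were higher and 2 lower, beside 21.8% and 21.3% of all genes. The median log2 change of the 11 was 0.0041, against 0.031 for all genes. Slc7a8 (LAT2) had 0.45 (SE 0.185), Slc7a4 0.46 (SE 0.225) and Slc7a14 -0.63 (SE 0.370). Slc7a12 and Slc7a13 were at 0 in all libraries.

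**Figure D3:**
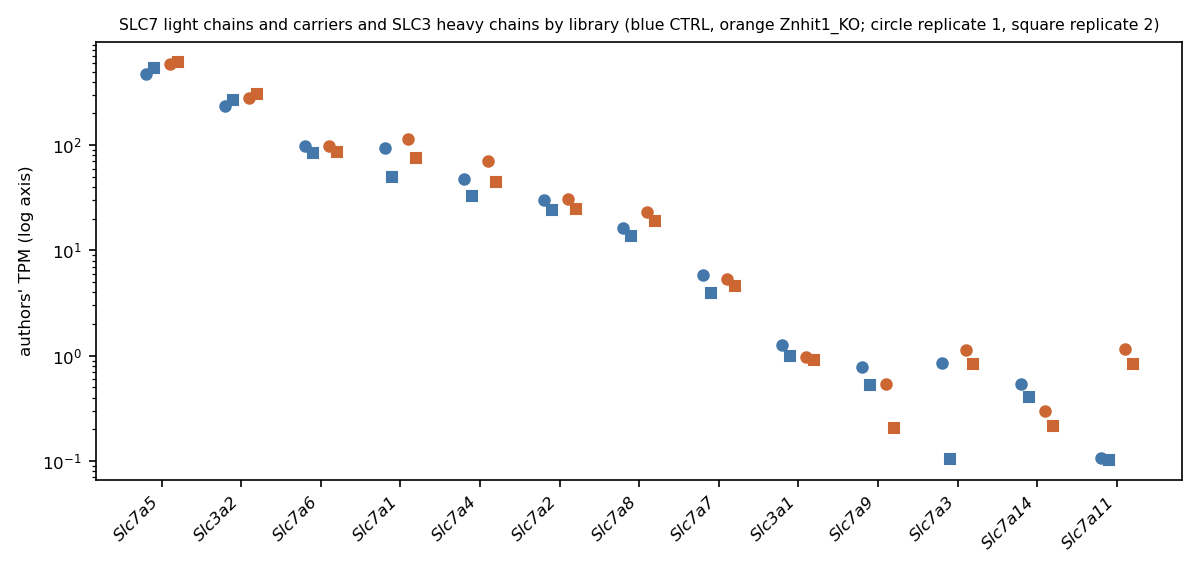
Authors' TPM (log axis) of Slc7a11, Slc3a2 and 11 other tested SLC7 and SLC3 genes in each library, ordered by the CTRL mean (blue CTRL, orange Znhit1_KO, circles replicate 1, squares replicate 2). Slc7a11 is last in CTRL, near 0.10 TPM, and reaches 1.16 and 0.834 TPM in Znhit1_KO.

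Atf4, the transcription factor gene at the centre of the response, is controlled mainly through translation, which was not measured. Its transcript stood at 63.7 and 85.7 CPM in CTRL, against 84.8 and 110 CPM in Znhit1_KO. Znhit1_KO replicate 1 fell just below CTRL replicate 2, so the groups overlapped. The log2 change was 0.38 (SE 0.221) and ranged from 0.15 to 0.61 with 1 library left out. On the authors' TPM scale the groups did not overlap, at 96.0 and 113 in CTRL and 124 and 159 in Znhit1_KO.

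Among ATF4's targets in amino acid metabolism, Asns, which makes asparagine from aspartate and glutamine, was at 56.1 and 48.9 CPM in CTRL and 75.1 and 65.9 CPM in Znhit1_KO. The groups did not overlap, and the log2 change was 0.43 (SE 0.165). Chac1, which cleaves glutathione, had 21 and 57 estimated counts in CTRL and 52 and 61 in Znhit1_KO. CTRL replicate 1 was low and the others were alike. Its log2 change of 0.36 (SE 0.688) became -0.21 without CTRL replicate 1 and 1.30 without CTRL replicate 2, and no difference was detectable at this depth.

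The feedback regulators had small differences. Trib3, a pseudokinase that restrains ATF4, stood at 2.82 and 2.83 CPM in CTRL and at 3.82 and 3.44 CPM in Znhit1_KO, without overlap, and its log2 change was 0.36 (SE 0.274). Ddit3 (CHOP), a transcription factor of prolonged stress, was at 14.5 and 17.9 CPM in CTRL and 18.8 and 16.8 CPM in Znhit1_KO. The Ddit3 groups overlapped, with a log2 change of 0.14 (SE 0.211), or -0.0096 without CTRL replicate 1. Its annotated span shares its 3′ end with Mars, a tRNA synthetase gene on the opposite strand with 17052 to 20168 estimated counts, and the sources used here do not say whether strand was used in counting. Sesn2, a leucine sensor that holds back mTORC1, was at 179 and 162 CPM in CTRL and at 252 and 162 CPM in Znhit1_KO. Only Znhit1_KO replicate 1 was high for Sesn2; the log2 change of 0.28 (SE 0.241) was -0.11 without it.

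Of the glutathione and haem genes, Gclm, the modifier subunit of glutamate-cysteine ligase, was at 84.4 and 106 CPM in CTRL and 92.6 and 105 CPM in Znhit1_KO. The groups overlapped, and the log2 change of 0.059 (SE 0.178) was the smallest of the 10; leaving out CTRL replicate 1 gave -0.097, and leaving out Znhit1_KO replicate 2 gave -0.071. Gclc, the catalytic subunit, exceeded Gclm in TPM by ratios of 1.95 and 1.64 in CTRL, against 1.77 and 1.62 in Znhit1_KO. Gm17494, a transcript of the opposite strand that overlaps Gclm, had 814 and 998 estimated counts in CTRL and 1743 and 1753 in Znhit1_KO, and its part in the Gclm values was not tested. Hmox1, which breaks down haem, was at 30.7 and 32.6 CPM in CTRL and at 40.3 and 46.0 CPM in Znhit1_KO. Its groups did not overlap, and its log2 change was 0.45 (SE 0.167). Haemoglobin transcripts varied between libraries in another pattern, Hbb-bs being at 4.77 and 36.2 CPM in CTRL and 6.25 and 74.7 CPM in Znhit1_KO. The constitutive enzyme gene Hmox2 had a log2 change of -0.074 (SE 0.153).

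The levels fell into a wide range. In CTRL the mean TPM ran from 252 for Slc3a2 through 121 for Sesn2, 105 for Atf4, 65.6 for Asns, 49.8 for Hmox1, 46.3 for Gclm, 44.5 for Ddit3, 3.52 for Trib3 and 0.434 for Chac1 to 0.104 for Slc7a11. In this order Sesn2 and Atf4 overlapped, as did Hmox1 with Gclm and Gclm with Ddit3, and the other neighbours were separate in their 2 libraries. In Znhit1_KO the order was the same except that Ddit3 (51.8) stood above Gclm (49.4) and Slc7a11 (0.998) above Chac1 (0.592). The Znhit1_KO values of Ddit3 and Gclm overlapped, as did those of Sesn2 and Atf4.

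All 10 genes had a positive log2 change, as did 53.1% of all genes, with a median of 0.36 (0.36 without Slc7a11) against 0.031 for all genes tested. Both Znhit1_KO libraries were above both CTRL libraries for 4 of the 10 (Slc7a11, Asns, Trib3 and Hmox1) against 21.8% of all genes, and below both for 0. On the TPM scale the count was 7 of 10, against 22.5% of the authors' genes. Since these values chose the genes, nothing follows from the counts.

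Scaling to Sertoli cell markers changed the sign for part of the genes. All 20 Sertoli markers had a positive log2 change, beside 53.1% of all genes, with a median of 0.38. Their levels summed to 6795 and 6956 CPM in CTRL and 9560 and 8036 CPM in Znhit1_KO, with none at 0. Clu alone stood at 3582 and 3937 CPM in CTRL and 4987 and 4325 CPM in Znhit1_KO. It was most of the sum in each library, so scaling to the sum rests largely on this gene. When the summed Sertoli marker counts set the scale, the median of all genes moved from 0.031 to -0.31, 23.6% of genes were positive, and both Znhit1_KO libraries were above both CTRL libraries for 5.51% and below both for 43.8%. On that scale 6 of the 10 genes were positive. Both Znhit1_KO libraries were above both CTRL libraries for 1 of them, Slc7a11, with a log2 change of 2.83, and below both for 1 other, Ddit3. Hmox1 had 0.11, Asns 0.071, Atf4 0.054, Chac1 0.037 and Trib3 0.010, while Sesn2 (-0.092), Ddit3 (-0.21), Slc3a2 (-0.23) and Gclm (-0.28) were negative. Such scaling moves all genes by nearly the same amount. Differences from the median of all genes therefore had to stay nearly as before, and they are no separate check. They were 3.15 for Slc7a11 (3.17 with TMM), 0.43 for Hmox1 (0.42) and 0.038 for Gclm (0.027).

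**Figure D4:**
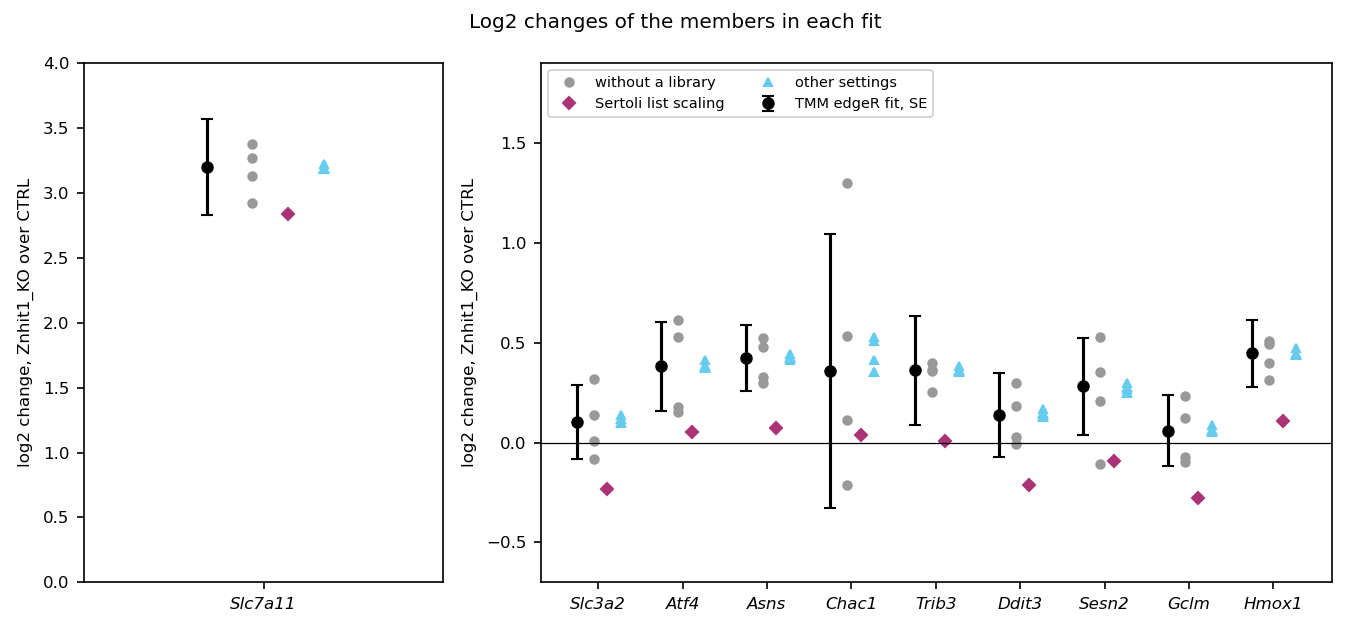
Log2 change of Slc7a11 (left) and the other 9 genes (right, another scale) from the TMM edgeR fit with its SE (black), with 1 library left out (grey), with Sertoli list scaling (purple) and under 5 other settings (light blue). Slc7a11 stays between 2.83 and 3.38; Slc3a2, Ddit3, Sesn2 and Gclm lie below 0 with Sertoli list scaling, and Chac1 spans -0.21 to 1.30.

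Markers of other cells moved too, and their part in the values above was not tested. Over all genes, 21.8% were higher and 21.3% lower in both Znhit1_KO libraries. Of 14 pachytene spermatocyte markers 11 were lower in both Znhit1_KO libraries, with a summed level of 1694 and 3244 CPM in CTRL and 948 and 1417 CPM in Znhit1_KO. Of 12 Leydig markers 6 were higher in both (summed 374 to 392 CPM in CTRL, 496 to 504 CPM in Znhit1_KO). Most of that sum came from Scarb1 (mean 179 CPM in CTRL, 223 CPM in Znhit1_KO) and Nr5a1 (123 and 162 CPM). It therefore says little about the other Leydig markers. Scarb1 and Nr5a1 had log2 changes of 0.31 (SE 0.149) and 0.40 (SE 0.170). Cyp17a1 (2.62, SE 0.303) and Cyp11a1 (2.21, SE 0.523) had the largest, and 1 of the 12 was negative. Of 13 macrophage markers 5 were higher and 1 lower in both (61.5 to 78.6 CPM in CTRL and 72.4 to 108 CPM in Znhit1_KO). The most abundant of these, Mrc1 and Csf1r, overlapped between groups, with log2 changes of 0.073 (SE 0.162) and 0.67 (SE 0.529). Spermatogonial markers summed to between 822 and 910 CPM in all libraries, with 0 of 12 higher and 2 lower in both. These 2 were Kit (log2 change -0.099, SE 0.139) and Stra8, a gene of meiotic entry (-0.67, SE 0.144). DESeq2 called 1 of the 12 lower, beside 3.86% of all genes. None of these markers was at 0 throughout. Peritubular markers had a median log2 change of 0.0032, endothelial markers 0.26 and red cell markers 0.98. Among 18 genes of the immediate early and heat shock responses, 13 were higher in both, with a median of 0.62. All 13 were immediate early genes. The heat shock genes overlapped between groups: Hspa1a (0.66, SE 0.341), Hspa1b (0.56, SE 0.325), Hsph1 (-0.079, SE 0.514) and Dnajb1 (-0.077, SE 0.170). The most abundant Sertoli markers, Clu and Aard, had log2 changes of 0.31 (SE 0.164) and 0.47 (SE 0.151), and the most abundant pachytene markers, Hspa2 and Piwil1, -0.89 (SE 0.310) and -1.57 (SE 0.475).

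Of the 31 other ATF4 target genes tested, 26 had a log2 change above 0 and 5 below it, beside 53.1% of all genes above 0. In this list edgeR called 0 over all genes. At an unadjusted edgeR p under 0.05, 4 were higher and 0 lower, beside 2.99% and 7.75% of all genes. In both Znhit1_KO libraries 15 were higher and 1 lower, beside 21.8% and 21.3% of all genes. Phgdh, the first enzyme of serine synthesis, stood at 141 and 142 CPM in CTRL and 196 and 183 CPM in Znhit1_KO, a log2 change of 0.42 (SE 0.138). The transcription factor gene Cebpb had 0.77 (SE 0.264) and the mTORC1 inhibitor gene Ddit4 0.74 (SE 0.253). Cebpg, a partner of ATF4, was at 58.3 and 52.8 CPM in CTRL and 47.5 and 45.9 CPM in Znhit1_KO. Psph, the last enzyme of serine synthesis, had -0.033 (SE 0.182). The median of the list was 0.31, and -0.038 with Sertoli list scaling, against -0.31 for all genes. On that scale 14 of the 31 were positive, beside 23.6% of all genes. Of the 31, 5 were higher and 8 lower in both Znhit1_KO libraries, beside 5.51% and 43.8% of all genes.

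Aminoacyl-tRNA synthetase genes, many of which ATF4 also induces, were mostly below 0. Of 20 tested, edgeR called 0 over all genes. Of these 20, 17 were negative and 3 positive, beside 53.1% of all genes positive, with a median log2 change of -0.11. Both Znhit1_KO libraries were below both CTRL libraries for 8 and above them for 1 (Vars), beside 21.3% and 21.8% of all genes. Lars, the leucyl-tRNA synthetase gene, stood at 90.2 and 90.7 CPM in CTRL and 67.3 and 58.1 CPM in Znhit1_KO, a log2 change of -0.53 (SE 0.154). Farsb had -0.42 (SE 0.175) and Qars -0.32 (SE 0.155). The 16 genes of the eIF2 kinases and the eIF2 cycle had a median of -0.10, with 0 called by edgeR. The PERK gene Eif2ak3 had 0.18 (SE 0.165), the haem-regulated kinase gene Eif2ak1 -0.27 (SE 0.162), and Impact, an inhibitor of the amino acid sensing kinase GCN2, 0.50 (SE 0.229).

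Genes of NRF2 and glutathione metabolism were mostly slightly higher in the Znhit1_KO libraries on the TMM scale. Of 31 tested, edgeR called 0 over all genes. Of these 31, 28 were positive, beside 53.1% of all genes, with a median log2 change of 0.25. Both Znhit1_KO libraries were above both CTRL libraries for 23 and below them for 0, beside 21.8% and 21.3% of all genes. Mafg, a partner of NRF2, stood at 43.1 and 44.6 CPM in CTRL and 64.1 and 56.2 CPM in Znhit1_KO, a log2 change of 0.46 (SE 0.158). Blvrb, a biliverdin reductase gene, had 0.57 (SE 0.233), and Gsr, glutathione reductase, 0.32 (SE 0.144). Nqo1, a standard NRF2 target, had -0.014 (SE 0.384), and Gclc -0.027 (SE 0.149). With Sertoli list scaling the median was -0.080, against -0.31 for all genes. On that scale 1 of the 31 was higher and 11 were lower in both Znhit1_KO libraries, beside 5.51% and 43.8% of all genes.

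Among 20 genes of cystine use, the gamma-glutamyl cycle, iron storage and ferroptosis, edgeR called 0 over all genes. In both Znhit1_KO libraries 7 were higher and 2 lower, beside 21.8% and 21.3% of all genes. Ftl1, the ferritin light chain, stood at 133 and 147 CPM in CTRL and at 193 and 202 CPM in Znhit1_KO, a log2 change of 0.50 (SE 0.143). Ggt7, a gamma-glutamyltransferase family gene, had -0.79 (SE 0.316). The 21 genes of endoplasmic reticulum chaperones and the ATF6 and XBP1 arm had a median of 0.022, and edgeR called 0; Xbp1 had 0.22 (SE 0.155) and Sdf2l1 -0.34 (SE 0.241). Of 20 genes of other sestrins, tribbles and amino acid sensing by mTORC1, edgeR called 0. In both Znhit1_KO libraries 6 were higher and 5 lower, 30% and 25%, near the shares of all genes. The GATOR1 subunit genes Nprl2 (-0.58, SE 0.227), Nprl3 (-0.47, SE 0.233) and Depdc5 (-0.26, SE 0.136) were among those 5, and Rragd, a Rag GTPase gene, had 0.37 (SE 0.152).

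**Figure D5:**
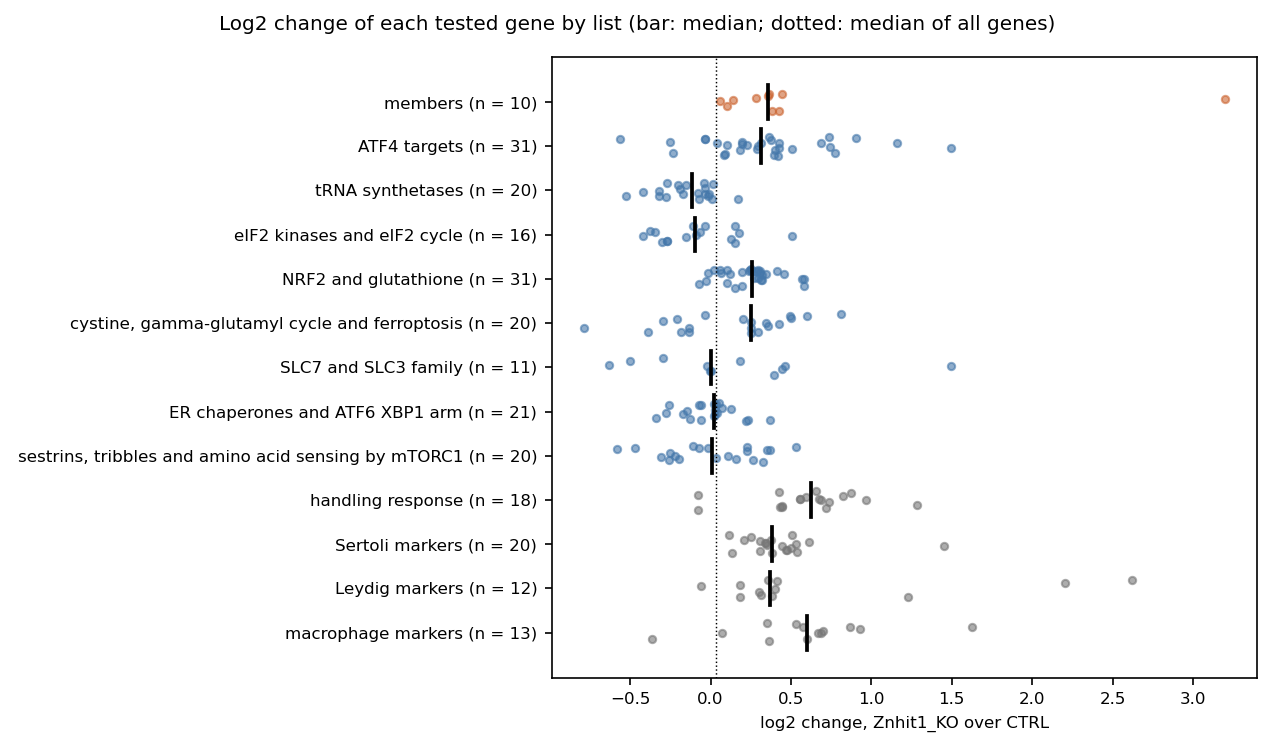
Log2 change (horizontal axis) of each tested gene in the 10 genes described (orange), in 8 lists of related genes (blue) and in the immediate early and heat shock (handling response) and cell marker lists (grey), with the median of each list as a bar and that of all genes (0.031) as a dotted line. Slc7a11 is the single orange point at 3.20; the other orange points lie between 0.059 and 0.45, while the Sertoli markers have a median of 0.38.

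Among genes with a mean of at least 5 CPM, those nearest in pattern to Slc7a11 were Cyp4f17, Cdkn1c, Cyp11a1, Ssh3 and Helt. Slc7a11 itself lay below that floor in every library. The floor also left out less abundant genes such as the Leydig marker Cyp17a1, with a log2 change of 2.62 (SE 0.303). Cyp17a1 stood at 1.00 and 0.833 CPM in CTRL and 5.97 and 5.33 CPM in Znhit1_KO. Likeness was the root mean square difference of log2 CPM after centring each gene on its mean, among genes with a characterised symbol and a mean of at least 5 CPM, and it was 0.735, 0.804, 0.893, 0.988 and 1.01 in that order. Cyp4f17, a cytochrome P450 gene, stood at 2.73 and 2.87 CPM in CTRL and 8.38 and 12.7 CPM in Znhit1_KO. The cell cycle inhibitor gene Cdkn1c stood at 9.72 and 8.96 CPM in CTRL and 25.3 and 36.4 CPM in Znhit1_KO. Within Znhit1_KO, replicate 2 was the higher library for Cyp4f17, Cdkn1c and Cyp11a1, and replicate 1 for Ssh3, Helt and Slc7a11. The log2 changes were 1.91 (SE 0.301) for Cyp4f17, 1.72 (SE 0.247) for Cdkn1c and 2.21 (SE 0.523) for Cyp11a1. Ssh3 was at 8.92 and 7.30 CPM in CTRL, against 18.9 and 18.5 CPM in Znhit1_KO, and Helt at 4.23 and 3.08 CPM, against 8.43 and 7.94 CPM.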

How the data were processed

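The deposited gene table holds whole numbers whose totals exceed the reads stated, so they are treated as the authors' estimated counts, and counting error cannot be read from them. Per the submitters' processing notes, the build was mm10, and the tools include StringTie 2.2.1, HISAT2 2.2.1, DESeq2 1.38.3 and cutadapt 2.5. The sources used here give no order, settings, strandedness or annotation for them. The authors' deposited comparison table holds TPM, a mean normalised signal, log2 fold changes with standard errors, Wald scores, and p-values. TPM is the authors' value per transcript length.

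Here edgeR 4.0.16 (R 4.3.3) was used with TMM, filterByExpr, a model of genotype alone and a Benjamini-Hochberg threshold of 0.05 over 24116 genes. The standard error is the log2 change divided by the root of F. DESeq2 1.42.0 and limma 3.58.1 were alternatives. On data simulated for this comparison over 23198 genes, edgeR recovered 10, 23, 34 and 44 of 50 genes changed 2-, 4-, 8- and 16-fold, with 4 false calls. Each gene was simulated at its trended dispersion, without the scatter of real genes around that trend. On the real libraries edgeR called 0 of 24116 genes, Znhit1 included, so these rates do not give its power here. Equal counts in a replicate pair occurred in 0.792% (CTRL) and 1.19% (Znhit1_KO) of tested genes, so no library was taken for a copy of another.

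Members and lists were chosen with earlier results of these data known. Named from each list were up to 3 higher and 3 lower genes of lowest unadjusted p with a mean of at least 1 CPM. From the Sertoli, Leydig, macrophage and pachytene spermatocyte marker lists the 2 most abundant were named. Kit and Hbb-bs are each among the 2 most abundant of their marker lists. The 5 genes most like Slc7a11 were named as well. Gm17494, Gm37826, Mars, Pcdh18 and Noct were named for their position. Slc7a3, Slc7a5, Slc3a1, Slc7a12, Slc7a13, Stra8, Cyp17a1, Hspa1a and Hspa1b were named after their values were seen. Gcn1l1 and Mars1 were matched through RefSeq synonyms. Slc7a1, Slc7a3 and Slc7a5 stand in 2 lists. Positions came from GENCODE M21 (mm10).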

Additional observations from a re-analysis of the deposited data

How the results depend on the processing

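The count of genes called by edgeR, 0, was also 0 with total count scaling, with Sertoli list scaling, without the low count filter and with limma-voom; DESeq2 called 1041. With the replicate block it was 2737. The replicate numbers are not shown to pair the animals: same-numbered deviations correlated at 0.421, over 2 pairs only. With 1 library left out the count ran from 0 to 754, the latter without CTRL replicate 1, where the lone CTRL library is assumed to vary like the other group. The cause was not tested. Slc7a11 kept its direction under all 10 alternatives (2.83 to 3.38). The median log2 change of the 10 genes was 0.024 with Sertoli list scaling and 0.25 to 0.35 with 1 library left out. With Sertoli list scaling, list medians were -0.038 for ATF4 targets, -0.45 for tRNA synthetases, -0.45 for eIF2 genes, -0.080 for NRF2 and glutathione, -0.099 for cystine and ferroptosis, -0.34 for the SLC7 family, -0.32 for ER chaperones, -0.34 for mTORC1 sensing and 0.26 for immediate early and heat shock genes; that scaling lowers all genes together. With 1 library left out they ran from 0.19 to 0.39, -0.22 to -0.0065, -0.28 to -0.034, 0.17 to 0.29, 0.072 to 0.21, -0.048 to 0.084, -0.11 to 0.12, -0.052 to 0.095 and 0.40 to 0.68, in the same order. Low counts limit Chac1, and 2 libraries a group limit every value.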

Other observations

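The C/EBP-ATF element TGATGNAAN was also sought in the promoters of the other ATF4 target genes. Of 35 RefSeq promoters that matched 25 of those genes, 7 held it, against 3.95% of all promoters, in Atf3, Fgf21, Jdp2, Nupr1, Pycr1, Slc1a4 and Vldlr. The spelling TGATGCAAT was in 3 of them (Fgf21, Nupr1 and Pycr1). Of 37 promoters of 27 genes of the NRF2 and glutathione list, 0 held TGATGNAAN and 12 held TGACNNNGC, 32.4% against 12.4% of all. TGACNNNGC was not particular to that list, as 9 of the 35 promoters of ATF4 target genes (25.7%) also held it. The genes of both lists were picked as known targets, so these shares describe how the lists were made as much as the data.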
